A study of Homo sapiens with 6 samples.

Results

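Replacement histone variants are the histones that cells make outside DNA replication and deposit in place of the standard ones. The genes described here are H2AZ1, H2AZ2, H3-3A, H3-3B, H1-10, H2AX, H2AJ, MACROH2A1 and MACROH2A2, taken by their symbols from the transcript names of the deposited quantification. They make up 9 of the 60607 genes and 97 of the 234326 transcripts listed there, and all 9 had enough counts to be tested. RNA came from PLC/PRF/5, an established cell line of human hepatocellular carcinoma, grown in culture. The control group (3 libraries) received siGL2, an irrelevant siRNA, and the knockdown group (3 libraries) received siSlu7, siRNAs against the splicing factor SLU7. Both groups were harvested 48 h after transfection. The labels call the 3 libraries of a group triplicates without saying whether they were separate cultures. The p-values therefore judge the group difference against the scatter among these samples, and that scatter may be technical.

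Replication-dependent histone genes have no introns, and their mRNA ends in a stem-loop instead of a poly(A) tail, which couples them to S phase. Replacement variant genes mostly carry introns and make ordinary polyadenylated mRNA, so their messages pass through splicing and 3' end processing like those of other genes. H2A.Z marks nucleosomes at promoters and enhancers, and H3.3 is laid down at active genes and at repeats. H2AX is phosphorylated around DNA breaks, macroH2A carries a large macrodomain and is enriched in silent chromatin, and H1-10 is a linker histone. SLU7 is needed when the spliceosome chooses and joins the 3' exon, and the comparison asks how its loss changes transcript levels and forms.

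The sequence that sets the 2 kinds of histone gene apart is shown first. A script searched the bases after the coding end of GENCODE 29 transcripts (GRCh38) for 6 bases that begin with GG, a loop of 4 bases that begins with TTT, and 6 bases that pair with the first 6. Of the replication-dependent genes whose model runs at least 100 bases past the coding end, 27 of 30 held such a stem-loop. Among the replacement variants 1 of 9 did, H2AX. Its stem-loop lies at chr11:119094898-119094913 on the minus strand, 52 bases after the coding end and 1044 bases before the end of the transcript H2AX-202. It is printed below with those of 2 replication-dependent H2A genes for comparison, H2AC8 at chr6:26217417-26217432 on the plus strand and H2AC18 at chr1:149842223-149842238 on the minus strand. All are 5' to 3' as in the mRNA, written as DNA, with the paired arms in capitals.
H2AX stem-loop: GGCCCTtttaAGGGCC
H2AC8 stem-loop: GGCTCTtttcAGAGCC
H2AC18 stem-loop: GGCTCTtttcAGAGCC
The replacement variants were also searched for the usual signal of polyadenylation. Each of the 9 genes had at least 1 annotated transcript with AATAAA or ATTAAA in its last 50 bases, read on the transcript's own strand. For H2AZ2 it was 1 of 8 transcripts. For MACROH2A1 it was 1 of 20, MACROH2A1-219, which has no coding label. The replication-dependent genes were not searched for this signal, so it is not shown to set the 2 kinds of gene apart. H1-10, H2AX and H2AJ have no intron in their main coding transcript, and the other 6 have from 2 to 8 introns. In RefSeq promoter windows, CCAAT on either strand occurred in 9 of the 13 promoters of these genes and in 34.6% of all 35116 promoters. TATAAA on either strand occurred in 4 of the 13 and in 11.5% of all.

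The libraries held from 5191452 to 8693977 estimated counts, fewer in each knockdown library than in any control. SLU7 had 166, 128 and 143 counts in control libraries against 60, 44 and 56 in knockdown libraries, a log2 fold change of -1.02 (SE 0.185, adjusted p = 0.0139). The change was -0.58 (adjusted p = 0.145) with transcript length offsets. On log2(TPM + 1) it was -0.06 (adjusted p = 0.855 by limma), where the median change of all tested genes was 0.44. The RNA is labelled as polyA RNA, and mitochondrial ribosomal RNA took from 16.8% to 24.1% of the counts in control libraries and from 29.9% to 35.3% in knockdown libraries. 7SL RNA took from 15.8% to 23.5% and from 8.09% to 10.7%. Control replicate 1 and knockdown replicate 3, called the outlying libraries below, stood apart: log2 expression correlated at 0.934 and 0.947 between control replicate 1 and the other controls, which correlated at 0.980 with each other. The corresponding values for knockdown replicate 3 were 0.952 and 0.966, against 0.976. Genes of high GC content leaned downwards: in the highest of 4 equal GC bins, from 55.5% up, 18.7% of genes were called lower and the median log2 fold change was -0.40, against 2.25% and 0.20 in the lowest bin. The part of these shifts in the results below was not tested, except where a value with GC offsets or without these libraries is given. Liver markers summed to between 17687 and 29795 CPM (counts scaled to library size with TMM factors). Immune markers summed to between 49.2 and 67.9 CPM, endothelial markers to between 3.32 and 4.86 CPM, and fibroblast markers to at most 3.39 CPM. Among these, CD79A, COL3A1, LUM and KDR had at most 0.251 CPM in any library. Of the markers tested, 1 of 9 liver, 1 of 4 immune, 0 of 1 fibroblast and 0 of 1 endothelial genes passed, the liver gene TTR (1.52) and the immune gene PTPRC (2.01), both higher. PTPRC stayed at or below 2.03 CPM. In bulk RNA, fewer cells of a kind and less RNA per cell cannot be told apart.

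Together the 9 genes took between 0.0278% and 0.0354% of the counts of a library, or 303.0, 341.0 and 344.2 CPM in control libraries against 344.2, 331.7 and 347.3 CPM in knockdown libraries. Their summed level therefore overlapped between the groups. Of the 9, only the linker histone gene H1-10 passed the test, and it was lower in the knockdown. The test was edgeR's quasi-likelihood test with Benjamini-Hochberg adjustment over all 17097 tested genes, 5.93% of which were called higher and 7.87% lower (13.8% in all). The median log2 fold change of the 9 was 0.04, and that of all tested genes was -0.01. The CPM of the 2 groups did not overlap for H1-10, MACROH2A1 and MACROH2A2, 3 of 9 genes, a share close to the 36.6% of all tested genes without overlap (17.8% higher and 18.8% lower). Without the 2 outlying libraries, H1-10, H2AZ1 and H2AX were called lower and MACROH2A1 higher, in a fit that called 15.7% of all genes lower and 14.1% higher (29.8% in all). With offsets for GC content and length, H1-10 was no longer called and MACROH2A1 was called higher, when 5.39% of all genes were higher and 5.14% lower.

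**Figure D1:**
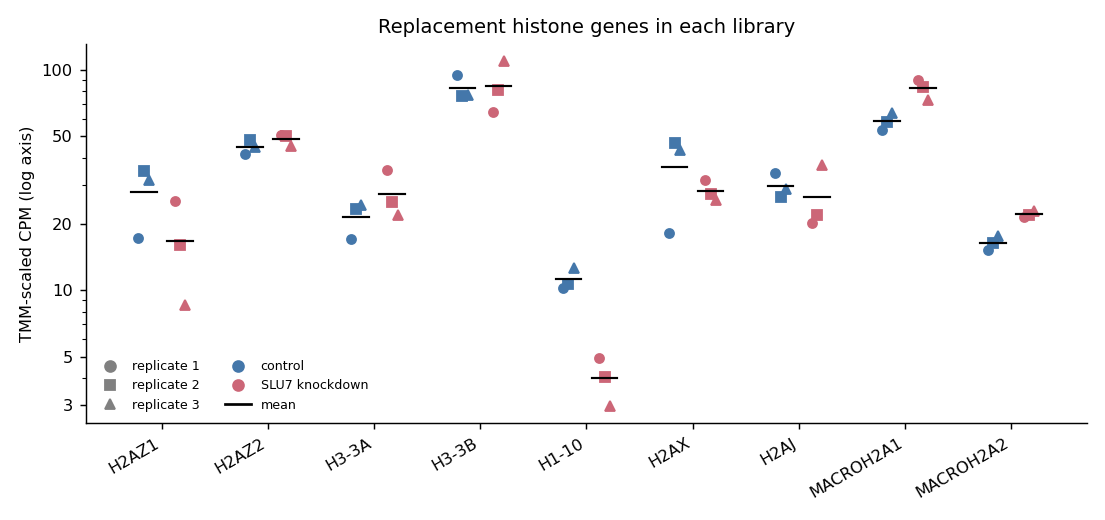
TMM-scaled CPM (log axis) of the 9 replacement histone genes in each library, controls in blue and SLU7 knockdowns in red, marker shape by replicate number, black bars at the group means. H1-10 is separated downwards, from 10.3 to 12.7 CPM in the controls to between 3.0 and 4.9, and MACROH2A1 and MACROH2A2 are separated upwards by less.

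H1-10 (chr3:129314771-129316277, minus strand, GRCh38 as annotated by GENCODE 29, like all positions given here) encodes a linker histone, also called H1X, which binds the DNA that enters and leaves the nucleosome. It had 82, 80 and 99 estimated counts in control libraries against 32, 22 and 16 in knockdown libraries. In CPM these were 10.3, 10.7 and 12.7 against 4.9, 4.1 and 3.0. Each knockdown library was below every control library. The level fell by 1.48 on the log2 scale (SE 0.24, adjusted p = 0.0106), to 35.9% of the control level. The gene has a single transcript in the files, H1-10-201 of 1516 bases, and in the test across transcripts the same counts gave -1.60 (SE 0.32, adjusted p = 0.111). This transcript has a GC content of 68.6%, within the GC bin that leaned downwards. It is the highest of the values taken from GENCODE 29 for the 9 genes. With GC content and length offsets the change was -0.75 (adjusted p = 0.105). Without the 2 outlying libraries it was -1.37 (adjusted p = 0.00326), and without knockdown replicate 2, a fit in which no gene passed, it was -1.49 (adjusted p = 0.0708). An antisense gene, H1-10-AS1, overlaps it on the other strand and had from 1 to 7 counts in every library. The strand setting of the counting is not known here, so reads of overlapping genes cannot be told apart.

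H2AX (chr11:119093854-119095467, minus strand) and H2AJ (chr12:14774383-14778002, plus strand) are the other genes without an intron in the main coding transcript. H2AX had 18.2, 46.9 and 43.4 CPM in control libraries against 31.6, 27.3 and 25.8 in knockdown libraries. Control replicate 1 was the lowest of the 6 libraries and the other controls were the highest, so the groups overlapped. The log2 fold change was -0.36 (SE 0.31, adjusted p = 0.473). Without control replicate 1 it was -0.68 (adjusted p = 0.0126), and without both outlying libraries -0.61 (adjusted p = 0.00977). With GC offsets it had the other sign, 0.37 (adjusted p = 0.360), and H2AX, at 67.3% GC, is next to H1-10 in GC content. A pair of transcripts shares the H2AX counts, and both contain the same coding sequence of 143 codons. H2AX-202, the unspliced coding form printed with its stem-loop above, had 30.5, 144.6 and 105.3 estimated counts in control libraries against 146.6, 60 and 62.6 in knockdown libraries. H2AX-201, of 2 exons and typed as a nonsense-mediated decay target, had 114.5, 205.4 and 235.1 against 58.4, 88.0 and 75.4 (log2 fold change -0.99, SE 0.39, adjusted p = 0.287). Its share of the gene ranged from 58.7% to 78.9% in control libraries and from 28.5% to 59.4% in knockdown libraries, and the groups overlapped (usage adjusted p = 1).

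H2AJ encodes an H2A form known to accumulate in senescent cells. It had 34.3, 26.7 and 28.8 CPM in control libraries against 20.3, 21.9 and 37.0 in knockdown libraries. Knockdown replicate 3 was the highest of all 6 libraries and the other knockdowns were the lowest. The log2 fold change was -0.18 (SE 0.24, adjusted p = 0.646), and with GC offsets it had the other sign, 0.23 (adjusted p = 0.564). Its main transcript H2AJ-203 took from 67.5% to 94.0% of the counts in control libraries and from 80.0% to 96.0% in knockdown libraries. All 3 genes without an intron in the main coding transcript had a negative log2 fold change (median -0.36). With GC offsets and on TPM, however, H2AX and H2AJ had positive values. Both also have spliced transcripts of 2 exons, whose counts are part of the gene values. Of the 6 genes with introns in the main coding transcript, 1 had a negative value (median 0.23). The coding sequences of the 3 genes without such an intron had from 64.1% to 70.2% GC, above the 51.8% to 59.8% of the other genes. The structure of the main coding transcript and GC content therefore cannot be told apart in these 9 genes.

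**Figure D2:**
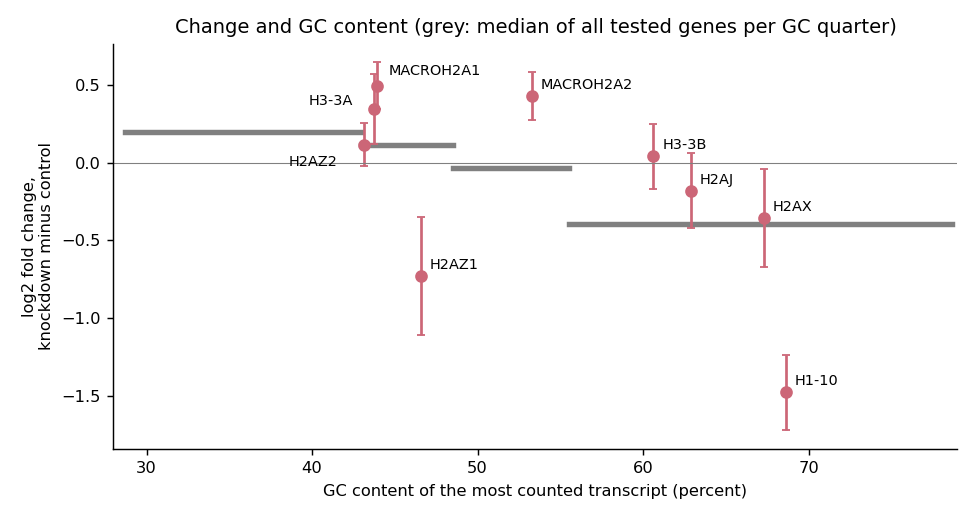
Log2 fold change (knockdown minus control, bars show the SE of the fit) of each replacement histone gene against the GC content of its most counted transcript in percent, with grey lines at the median of all tested genes in each of 4 GC bins. H1-10 at -1.48 and H2AZ1 at -0.73 lie below the grey line of their bin. MACROH2A1 at 0.50, MACROH2A2 at 0.43, H3-3A at 0.34, H3-3B at 0.04 and H2AJ at -0.18 lie above theirs. H2AX at -0.36 and H2AZ2 at 0.12 lie close to theirs.

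H2AZ1 (chr4:99948086-99950388, minus strand) and H2AZ2 (chr7:44826791-44848083, minus strand) encode the 2 forms of H2A.Z, the variant exchanged into nucleosomes at promoters by the SRCAP and p400 complexes. Their coding sequences of 384 bases differ at 75 bases (80.5% identity), and the encoded proteins differ at 3 of 128 residues. The longest run of identical bases is 23, which bears on how well short reads can be assigned to one or the other. The first 90 coding bases of each, read from GENCODE 29 transcripts, are shown with the bases that differ in capitals.
H2AZ1: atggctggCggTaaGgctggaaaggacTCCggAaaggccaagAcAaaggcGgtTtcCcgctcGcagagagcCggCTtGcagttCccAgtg
H2AZ2: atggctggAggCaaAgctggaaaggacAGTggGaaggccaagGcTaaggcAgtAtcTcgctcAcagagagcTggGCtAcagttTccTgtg
H2AZ1 had 17.3, 34.7 and 31.8 CPM in control libraries against 25.6, 16.04 and 8.6 in knockdown libraries. Control replicate 1 lay below knockdown replicate 1, and the other knockdowns were the lowest libraries. The log2 fold change was -0.73 (SE 0.38, adjusted p = 0.223). It was -0.66 (adjusted p = 0.0307) without the 2 outlying libraries and -0.91 (adjusted p = 0.176) with GC offsets. H2AZ2 had 41.4, 48.3 and 44.7 CPM in control libraries against 50.5, 50.1 and 45.1 in knockdown libraries. The groups overlapped, and the log2 fold change was 0.12 (SE 0.14, adjusted p = 0.611). The log2 ratio of H2AZ1 to H2AZ2 counts within a library needs no scaling between libraries. It was -1.25, -0.48 and -0.49 in control libraries against -0.99, -1.63 and -2.38 in knockdown libraries. The means were -0.74 ± 0.44 and -1.66 ± 0.69 (SD, n = 3 each), a difference of -0.92 (exact two-sided permutation p = 0.2, adjusted p = 0.6 over the 3 paralog ratios). The smallest p that 3 against 3 libraries can give is 0.1. On TPM the difference was -1.77, at that smallest p. Counts of processed copies were low: 8 H2AZ pseudogenes summed to between 3 and 12 counts in a library.

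Within H2AZ1, the coding transcript H2AZ1-201 had 95, 65.8 and 131.4 estimated counts in control libraries against 117.0, 62.1 and 25.9 in knockdown libraries. The groups overlapped (log2 fold change -0.24, SE 0.52, adjusted p = 0.859). The transcript H2AZ1-206, a processed transcript of 726 bases without an annotated reading frame, had 16.3, 113.5 and 74.5 counts in control libraries against 10.7, 0 and 0 in knockdown libraries. All 3 knockdown libraries were below every control, and its log2 fold change relative to the other transcripts of the gene was -3.26 (adjusted p = 0.357 over all transcripts in the usage test). H2AZ1-205, a short form typed as retained intron, had 4.8, 38.8 and 16.6 counts in the controls and was listed at 0 in all 3 knockdowns, too few to be tested. At the level of the gene, transcript usage did not pass (adjusted p = 0.382), nor did the use of transcript classes (adjusted p = 0.188). Of all genes, 2.90% passed the test of transcript usage and 2.26% that of class usage.

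H2AZ2 has 2 main coding transcripts with different C-terminal ends. H2AZ2-201 encodes 114 residues, the length of the form known as H2A.Z.2.2, and H2AZ2-202 encodes the standard 128. The coding bases of their last coding exons, without the stop codon, are shown because they hold the difference. They lie at chr7:44830147-44830163 and chr7:44834504-44834562, both on the minus strand.
H2AZ2-201 coding end: agaagagaaggtgttct
H2AZ2-202 coding end: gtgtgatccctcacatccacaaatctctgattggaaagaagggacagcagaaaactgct
H2AZ2-201, which encodes the short form, was the most counted transcript, with 194.6, 191.3 and 193.1 estimated counts in control libraries against 182.8, 151.3 and 165.1 in knockdown libraries (log2 fold change 0.10, SE 0.19, adjusted p = 0.838). Its model has 3804 bases and that of H2AZ2-202 has 3026. Counts are not scaled for length, so they do not rank the forms by level. The standard form H2AZ2-202 had 93.8, 133.2 and 130 counts in control libraries against 74.5, 55.3 and 37.0 in knockdown libraries. Every knockdown library was below every control, at a log2 fold change of -0.82 (SE 0.32, unadjusted p = 0.0408, adjusted p = 0.287 in edgeR). Of the counts of these 2 transcripts, H2AZ2-202 took 32.5%, 41.0% and 40.2% in control libraries against 28.9%, 26.8% and 18.3% in knockdown libraries, a share computed after the counts had been seen. Transcript usage in H2AZ2 did not pass the test (adjusted p = 1).

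H3-3A (chr1:226061851-226072001, plus strand) and H3-3B (chr17:75776434-75785893, minus strand) encode the same protein, H3.3, which HIRA deposits at active genes and DAXX with ATRX at repeats. Their coding sequences of 408 bases differ at 88 bases (78.4% identity) and at 0 of 136 residues. The longest run of identical bases is 14. The first 90 coding bases show how the differences, in capitals, fall within codons that encode the same protein.
H3-3A: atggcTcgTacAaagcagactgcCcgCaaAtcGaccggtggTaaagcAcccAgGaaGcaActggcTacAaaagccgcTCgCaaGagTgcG
H3-3B: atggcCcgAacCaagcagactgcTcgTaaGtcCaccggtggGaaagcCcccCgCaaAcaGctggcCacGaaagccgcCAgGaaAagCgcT
H3-3A had 17.1, 23.4 and 24.4 CPM in control libraries against 35.1, 25.3 and 21.9 in knockdown libraries. The groups overlapped through knockdown replicate 3, and the log2 fold change was 0.34 (SE 0.22, adjusted p = 0.325). H3-3B had 95.4, 75.9 and 76.8 CPM in control libraries against 64.3, 81.3 and 109.7 in knockdown libraries. The knockdown libraries spanned the whole range of the controls, and the log2 fold change was 0.04 (SE 0.21, adjusted p = 0.916). It was -0.07 without the 2 outlying libraries. The log2 ratio of H3-3A to H3-3B counts was -2.47, -1.69 and -1.65 in control libraries against -0.88, -1.68 and -2.33 in knockdown libraries. The difference of 0.30 did not exceed the spread (exact two-sided permutation p = 0.5, adjusted p = 0.7). It was -0.07 without knockdown replicate 1, and 0.61 on TPM (exact permutation p = 0.4). Summed over 47 H3 pseudogenes, counts ranged from 18 to 44 in a library.

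Within H3-3A the shares of 2 transcripts were separated between the groups, although neither usage test by Simes adjustment over all 6 libraries passed. H3-3A-203, the coding transcript of 1070 bases, took 66.6%, 76.6% and 65.3% of the gene's counts in control libraries against 35.1%, 24.6% and 31.0% in knockdown libraries. Its counts were 91.4, 134.3 and 125.1 against 79.7, 33.8 and 36.0 (log2 fold change -0.95, SE 0.38, adjusted p = 0.292). H3-3A-207, a processed transcript of 600 bases without an annotated reading frame, took 12.3%, 1.2% and 2.3% in control libraries against 30.3%, 28.7% and 23.1% in knockdown libraries. Its counts were 16.8, 2.1 and 4.3 against 68.9, 39.3 and 26.8, with every knockdown library above every control. The log2 fold change was 2.84 (SE 0.80, adjusted p = 0.185), and relative to the other H3-3A transcripts it was 2.71 (usage adjusted p = 0.224). Another coding transcript, H3-3A-202, had 6.5, 5.5 and 15 counts in control libraries against 31.9, 16.8 and 22.6 in knockdown libraries. Of its 1863 bases 78.4% lie within introns of the main form, but it keeps 0 of these introns whole. Its log2 fold change was 1.70 (SE 0.54, adjusted p = 0.213), and the groups did not overlap. Transcript usage in H3-3A had an adjusted p of 0.280 and class usage one of 0.0618. Class usage passed without the 2 outlying libraries (adjusted p = 0.00626, when 6.83% of all genes passed), without control replicate 1 alone (0.00366, with 6.48% of all genes) and by the gene-level F test over all 6 libraries (0.0175, with 8.85%). Transcript usage passed without control replicate 1 (adjusted p = 0.0404, when 8.7% of all genes passed), and not by the F test (0.0885). Control replicate 1 had the highest share of H3-3A-207 among the controls.

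**Figure D3:**
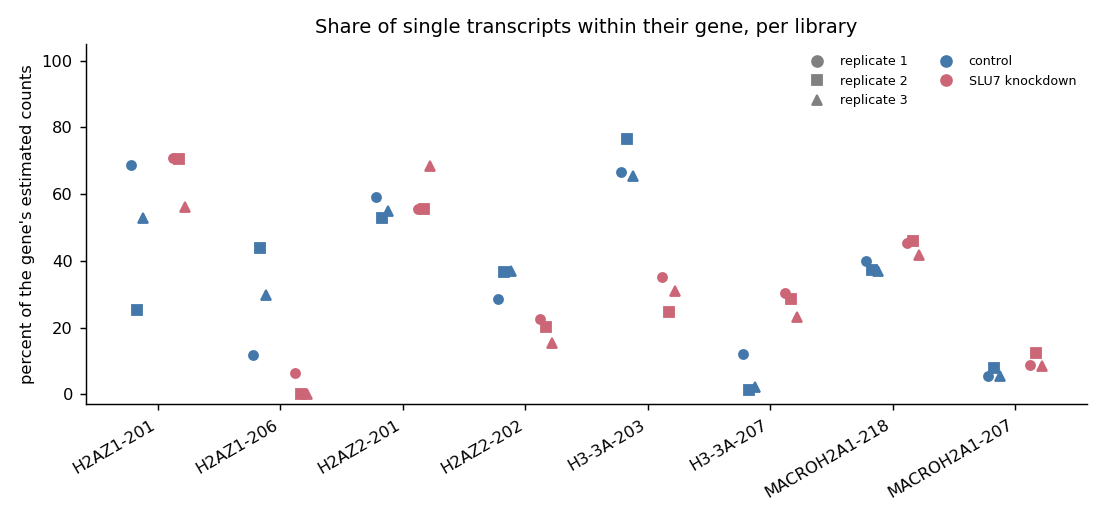
Percent of the estimated counts of the gene held by single transcripts of H2AZ1, H2AZ2, H3-3A and MACROH2A1 in each library, controls in blue and knockdowns in red, marker shape by replicate number. H3-3A-203 lies at 65.3% or more in control libraries and at 35.1% or less in knockdown libraries, and H3-3A-207 at 12.3% or less and 23.1% or more.

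For H3-3B, counts were divided among short coding transcripts that the quantification could hardly tell apart. H3-3B-204 and H3-3B-206, both of 551 bases, received equal counts in 4 libraries, so their sum is given here. It was 638.6, 279.2 and 365.0 in control libraries against 255.2, 310.2 and 512.6 in knockdown libraries, with overlap. H3-3B-208, a coding transcript of 576 bases, had 17.8, 100.3 and 43.0 counts in control libraries against 0, 11.2 and 0 in knockdown libraries (usage log2 fold change -3.43, adjusted p = 0.363). H3-3B-209, typed as retained intron, had 15.3, 20.5 and 18.4 against 24.3, 32.3 and 26.6 (log2 fold change 0.94, SE 0.39, adjusted p = 0.309). Neither passed the test, although in both the groups did not overlap. H3-3B lies opposite the gene UNK on the other strand.

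MACROH2A1 (chr5:135333900-135399914, minus strand) and MACROH2A2 (chr10:70052796-70112280, plus strand) encode H2A variants with a macrodomain. MACROH2A1 had 53.6, 58.0 and 64.0 CPM in control libraries against 90.3, 83.7 and 73.5 in knockdown libraries. Every knockdown library was above every control. The log2 fold change was 0.50 (SE 0.15, adjusted p = 0.0573), and it was 0.52 both with GC offsets (adjusted p = 0.0480) and without the 2 outlying libraries (adjusted p = 0.0130). MACROH2A2 had 15.3, 16.3 and 17.6 CPM in control libraries against 21.5, 21.9 and 22.8 in knockdown libraries. Again the groups did not overlap, and the log2 fold change was 0.43 (SE 0.15, adjusted p = 0.0958). With transcript length offsets it was 1.02 (adjusted p = 0.209). The log2 ratio of MACROH2A1 to MACROH2A2 was 1.80, 1.83 and 1.86 in control libraries against 2.06, 1.92 and 1.66 in knockdown libraries. The difference of 0.05 was within the spread of the knockdowns (exact two-sided permutation p = 0.7, adjusted p = 0.7), and it was -0.04 without knockdown replicate 1. On TPM it was -0.52 (exact permutation p = 0.5). C5orf66 overlaps MACROH2A1 and AIFM2 overlaps MACROH2A2 on the other strand.

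Most MACROH2A1 counts were assigned to transcripts without a coding label. Protein-coding transcripts took from 9.51% to 15.5% of its counts in control libraries and from 9.32% to 10.3% in knockdown libraries. The largest share went to MACROH2A1-218, a transcript of 10982 bases of which 88.7% lie in introns of the main coding form. It had 170.8, 160.6 and 185.0 counts in control libraries against 266.6, 209.6 and 163.8 in knockdown libraries, and in CPM the groups did not overlap (log2 fold change 0.61, SE 0.21, adjusted p = 0.248). MACROH2A1-207, a retained-intron transcript with 91.5% intron bases, had 24.2, 33.8 and 27.6 counts against 51.4, 56.1 and 33.9 (log2 fold change 1.02, SE 0.35, adjusted p = 0.250). MACROH2A1-216, with 61.4% intron bases, had 22.0, 35.1 and 30.1 against 37.4, 45.5 and 53.2 (log2 fold change 0.96, SE 0.38, adjusted p = 0.295). The most counted retained-intron transcript has 861 bases, 28.2% of them in introns. It had 106.8, 75.4 and 86.5 counts in control libraries against 66.8, 46.4 and 67.8 in knockdown libraries. In CPM the groups overlapped (log2 fold change -0.25, SE 0.28, adjusted p = 0.724). Together, retained-intron transcripts took from 30.97% to 38.96% of the gene's counts in control libraries and from 27.78% to 42.39% in knockdown libraries. The coding transcript MACROH2A1-215 had 34.3, 34.9 and 51.6 counts in control libraries against 26.5, 38.9 and 28.9 in knockdown libraries. Its log2 fold change was -0.03 (SE 0.38, adjusted p = 0.943). Transcript usage in the gene did not pass (adjusted p = 1), but it did without control replicate 1 (0.00929) and without the 2 outlying libraries (0.0227, when 9.36% of all genes passed). In MACROH2A2, retained-intron transcripts took from 65.7% to 85.3% of the counts in control libraries and from 61.3% to 84.5% in knockdown libraries, with overlap. Its most counted transcript, MACROH2A2-215, had 33.0, 23.8 and 30.2 counts in control libraries against 38.7, 35.6 and 15.8 in knockdown libraries (log2 fold change 0.37, SE 0.41, adjusted p = 0.719).

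The coding forms of MACROH2A1 differ in 1 of 2 mutually exclusive exons, a well-known splicing choice. The macroH2A1.1 exon (91 bases, chr5:135350823-135350913) gives a macrodomain that binds ADP-ribose, and the macroH2A1.2 exon (100 bases, chr5:135352946-135353045) gives one that does not. Both are shown on the minus strand, since these bases decide which transcript a read supports.
macroH2A1.1 exon: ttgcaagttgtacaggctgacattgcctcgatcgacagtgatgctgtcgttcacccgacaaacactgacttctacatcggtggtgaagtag
macroH2A1.2 exon: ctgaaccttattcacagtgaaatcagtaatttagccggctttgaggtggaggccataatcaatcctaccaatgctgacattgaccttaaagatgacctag
Only coding transcripts of 369 to 372 codons were sorted by exon, and the other transcripts of the gene were not checked for either exon. Those with the macroH2A1.2 exon (MACROH2A1-201, MACROH2A1-215 and MACROH2A1-217) had 37.0, 56.6 and 77.5 estimated counts in control libraries against 44.3, 38.9 and 31.7 in knockdown libraries. MACROH2A1-202, with the macroH2A1.1 exon, had 0 counts in 5 libraries and 8.6 in knockdown replicate 3. Taken as 3 counts of the total of these transcripts, a count of 0 allows a macroH2A1.1 share among them of up to 8.11%, 5.26% and 3.90% in the controls and up to 6.82% and 7.69% in knockdown replicates 1 and 2. The upper Clopper-Pearson limits (95%) were 9.49%, 6.27% and 4.68% in the controls and 8.04% and 9.03% in these knockdowns. In knockdown replicate 3 the share was 22.5% (9 of 40 rounded counts, 95% Clopper-Pearson interval from 10.8% to 38.5%). These limits cover counting error only. The difference of the group means rested on that 1 library (exact two-sided permutation p = 1, smallest possible 0.1), and it was 0 without it.

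Across all 38 tested transcripts of the 9 genes, none passed the edgeR test, and none of all 43128 tested transcripts did. At an unadjusted p below 0.05 there were 11 of the 38 and 6956 of all. Limma on log2(TPM + 1) called 2 of 33 transcripts of these genes and 1317 of 33870 in all. The 2 were H3-3A-207 (adjusted p = 0.0341) and MACROH2A1-214 (adjusted p = 0.0362), a short transcript with 0, 4.7 and 0 counts in control libraries against 9.6, 6.2 and 6.2 in knockdown libraries. In CPM the groups did not overlap for 11 of the 38, of which 7 were higher and 4 lower in the knockdown. Of all tested transcripts 28.1% did not overlap, 14.1% higher and 14% lower. No gene of the 8 with several tested transcripts passed the usage test by Simes adjustment (2 at an unadjusted p below 0.05), nor any of 7 the class usage test (2 at an unadjusted p below 0.05). The gene-level F test called 0 for transcript usage, when 4.98% of all genes passed, and 1 for class usage, when 8.85% did.

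**Figure D4:**
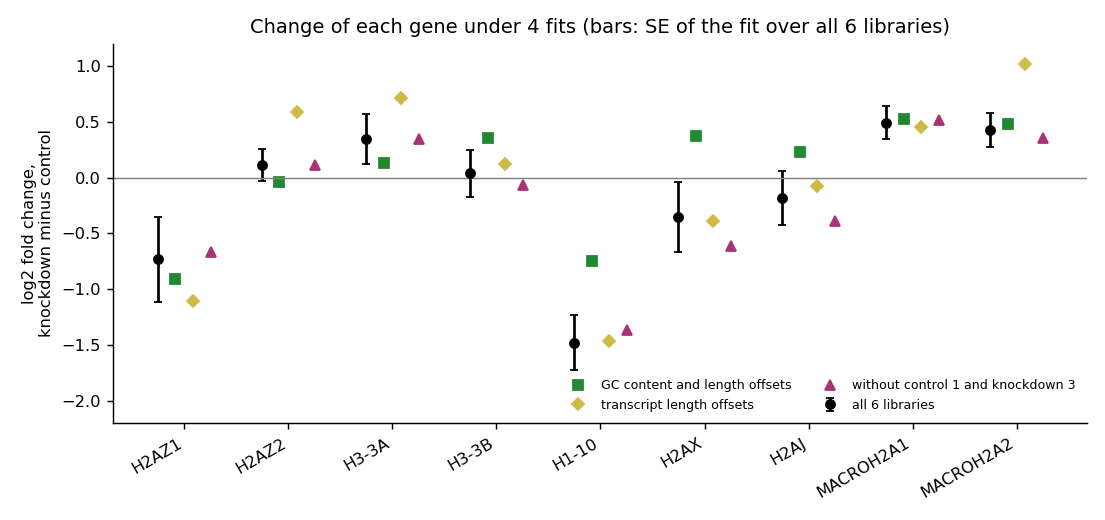
Log2 fold change (knockdown minus control) of each gene in the fit over all 6 libraries, with the SE as bars, with offsets for GC content and length, with transcript length offsets, and without control replicate 1 and knockdown replicate 3. H1-10 and H2AZ1 stay below 0 and H3-3A, MACROH2A1 and MACROH2A2 above 0 in all 4 fits, while H2AZ2, H3-3B, H2AX and H2AJ have both signs.

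Levels can be compared between genes only per transcript length, for which the deposited TPM were summed per gene. In the controls H3-3B had the highest level, 71.3 ± 22.5 TPM (SD, n = 3 here and below), and its lowest library lay above the highest of the next gene. H2AJ (23.1 ± 6.42), H2AZ1 (18.5 ± 6.64), MACROH2A1 (17.7 ± 2.34), H2AX (11.9 ± 5.02) and H3-3A (10.9 ± 2.29) followed, each overlapping the next. H2AZ2 (8.88 ± 0.405) lay below H3-3A without overlap, and overlapped MACROH2A2 (5.53 ± 2.98), which overlapped H1-10 (3.58 ± 0.849). In the knockdowns H3-3B was again the highest (107.6 ± 42.3 TPM) and H1-10 the lowest (1.79 ± 0.453), each without overlap with its neighbour in the order. MACROH2A1 (34.1 ± 5.27) was second and H2AZ1 (12.3 ± 7.10) next to last. TPM leaned upwards in the knockdown: the median change of log2(TPM + 1) over all tested genes was 0.44. On that scale limma called H2AZ2 (1.001, adjusted p = 0.0311), H3-3A (1.104, adjusted p = 0.0435) and MACROH2A1 (0.91, adjusted p = 0.0460) higher, at 11.4% of all genes higher and 0.6% lower. H1-10 was at -0.71 (adjusted p = 0.0803), and H2AX (0.18) and H2AJ (0.36), which had negative values on counts, lay above 0 but below the median of all genes.

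The replication-dependent histone genes served as the class to compare with. Of 59 tested, 35 were called lower and 0 higher, with a median log2 fold change of -1.09, against 1 lower of 9 and a median of 0.04 for the replacement variants. In the same fit 7.87% of all tested genes were called lower. The usual mRNA of replication-dependent genes has no poly(A) tail, and the RNA is labelled as polyA RNA. Counts of these genes may therefore not follow their levels in the cell, which was not tested. Their summed level was 7452, 7510 and 7180 CPM in control libraries against 4330, 4303 and 4486 CPM in knockdown libraries. With GC offsets 20 of 59 were lower (median -0.88), against 5.14% of all genes. Without the 2 outlying libraries 49 of 60 were lower, against 15.7% of all genes. DESeq2 called 41 (2541 over all genes), and limma on log2(TPM + 1) called 5, all lower (median -0.54), when 0.6% of all genes were lower. The difference between the classes is given as counts and medians, without a test. H1-10, at -1.48, was lower than the median of the replication-dependent genes, and the other 8 replacement variants lay above it.

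**Figure D5:**
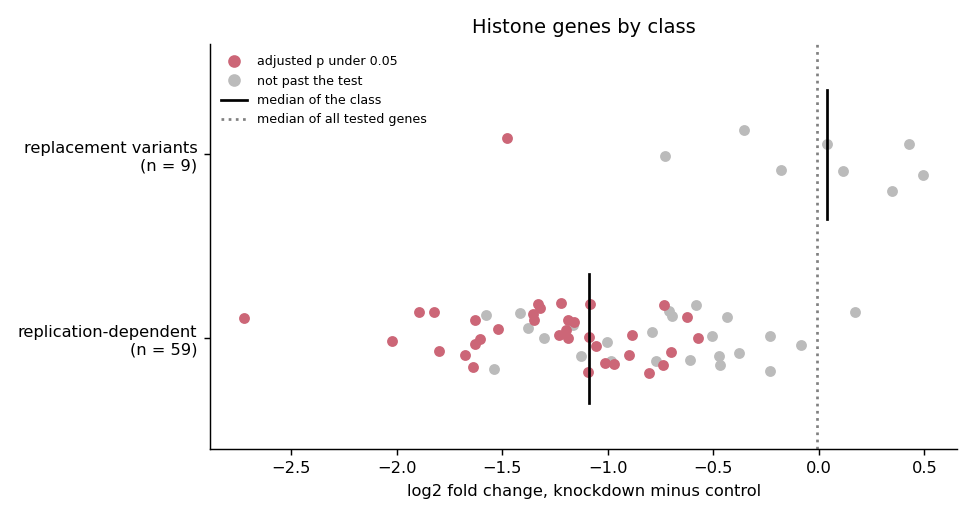
Log2 fold change (knockdown minus control) of 59 replication-dependent and 9 replacement histone genes, red where the adjusted p was under 0.05, with a black line at the median of each class and a dotted line at the median of all tested genes. The medians are -1.09 and 0.04, and vertical scatter within a class only separates the points.

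Genes that handle these variants were read from lists. Of 21 genes for H2A.Z exchange complexes and chaperones, 8 were higher and 1 lower (median 0.26), when 5.93% of all tested genes were higher and 7.87% lower. With GC offsets 4 were higher and 0 lower, against 5.39% and 5.14% of all genes. EPC1, a subunit of the TIP60 complex, went from 18.04 ± 1.099 to 40.5 ± 2.92 CPM (adjusted p = 0.00882), and SRCAP, the exchange ATPase, from 48.8 ± 3.96 to 82.3 ± 3.99 CPM (adjusted p = 0.0142). BRD8 rose by 0.65 (adjusted p = 0.0224), and RUVBL2, an ATPase shared by several of these complexes, fell by 0.93 on the log2 scale (adjusted p = 0.0199). Of 10 H3.3 chaperone genes, 1 was higher, UBN1 of the HIRA complex (log2 fold change 0.54, adjusted p = 0.0355). Of 11 tested genes for H2AX phosphorylation and its readers, RNF8, a ubiquitin ligase recruited after H2AX phosphorylation, rose by 1.05 (adjusted p = 0.0147). TP53BP1, a reader of the damaged chromatin, fell by 0.70 (adjusted p = 0.0223). Without the 2 outlying libraries 4 of these 11 were higher and 1 lower, in a fit that called 14.1% of all genes higher and 15.7% lower. Of 6 splicing regulators of MACROH2A1 and PARP1, edgeR called 0 (1 at an unadjusted p below 0.05), DESeq2 0 and limma on log2(TPM + 1) 1. MBNL1 was at 0.34 (adjusted p = 0.136) and RBFOX2 at -0.34 (adjusted p = 0.163). Of 14 proliferation genes, TPX2 was higher (0.88, adjusted p = 0.0414), and with GC offsets 0 were higher and 0 lower. Without the 2 outlying libraries 8 were higher and 1 lower, in the fit that called 14.1% of all genes higher and 15.7% lower.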

How the data were processed

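RNA-seq libraries of 3 control and 3 SLU7 knockdown samples were used. FastQC 0.11.8, Trimmomatic 0.38, kallisto 0.46.1, sleuth 0.30.0 and GRCh38 are named in the submitters' processing notes; annotation release and strand setting: not given in the sources used here. Per the file headers, the authors deposited estimated counts and TPM (scaled for effective length and depth) for 234485 transcripts; 159 pseudoautosomal records were merged.

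Estimated counts were rounded per transcript and summed per gene by symbol and identifier. Genes and transcripts were filtered with filterByExpr (minimum count 10, total 15), scaled by TMM and tested with edgeR 4.0.16 (glmQLFit, glmQLFTest; R 4.3.3). Benjamini-Hochberg adjusted p-values under 0.05 over all tested features counted as called. Transcript and class usage were tested with diffSpliceDGE (Simes p per gene). Paralog ratios (pseudocount 0.5) and the macroH2A1.1 share were tested with exact permutation tests over libraries (scipy 1.17.1). GC content and all sequences came from GENCODE 29 transcripts (GRCh38), which cover 97.6% of the tested genes; the models in the files are partly later ones. The scripts were tested on simulated data.

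Alternatives were DESeq2 1.42.0, limma 3.58.1 on log2(TPM + 1) with a minimum mean of 1 TPM, other filters, size factors, offsets, a replicate block and leaving out libraries. Named were all 9 genes, SLU7, up to 4 called genes of each list (2 if none), and transcripts with a mean of at least 1 CPM. The genes, lists and rules were chosen with earlier results of these data known. The list of other variant histone genes is not reported here.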

Additional observations from a re-analysis of the deposited data

How the results depend on the processing

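The number of genes called rested on single libraries: 2358 in all, between 0 and 4467 when 1 library was left out (0 without knockdown replicate 2, when 4249 of 18513 genes had an unadjusted p below 0.05, and 4467 without control replicate 1), 5234 without both libraries that stood apart and 835 with transcript length offsets. Of the 9 replacement variant genes 1 was called, between 0 and 2 when 1 library was left out, 2 with no filter (H1-10 and H2AZ1), 4 without the 2 libraries that stood apart and 3 by limma on log2(TPM + 1). No transcript of theirs was called except 2 by limma. Transcript usage called between 0 and 2 of them when 1 library was left out and 1 without the 2 libraries; class usage called between 0 and 1, and 1 both without the 2 libraries and by the gene-level F test. The fits without the 2 libraries and with GC offsets were chosen after seeing the data.

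With the replicate number as a block, 0 of all genes and 0 of the 9 genes passed (H1-10: -1.49, adjusted p = 0.0613). Deviations from the group means correlated at -0.41, 0.11 and -0.37 between libraries of the same number. Between control replicate 1 and knockdown replicate 3, the libraries that stood apart, they correlated at 0.44. Deviations from means of 3 libraries, of which 1 per group stood apart, cannot decide whether equal numbers pair the samples. With the block, the mean differences of the ratios and of the share are the same by construction.

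Left out one at a time, libraries gave differences of between -1.26 and -0.57 for the log2 ratio of H2AZ1 to H2AZ2, between -0.072 and 0.66 for H3-3A to H3-3B, between -0.038 and 0.16 for MACROH2A1 to MACROH2A2, and between 0 and 10.6 percentage points for the macroH2A1.1 share (main value 7.09, and 0 without the 2 libraries). On TPM the differences were -1.77 (exact permutation p = 0.1, the smallest possible), 0.61 (p = 0.4) and -0.52 (p = 0.5) for these 3 ratios.

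Changes of sign came in genes and transcripts that had not passed. With GC offsets H2AZ2 was at -0.034, H2AX at 0.37 and H2AJ at 0.23; by limma H2AX was at 0.18, H2AJ at 0.36, H2AZ1-201 at 0.23 and H2AJ-203 at 0.51. H3-3B was at -0.029 without control replicate 2 or 3, at -0.19 without knockdown replicate 3 and at -0.069 without the 2 libraries (0.20 without knockdown replicate 1). H2AZ1-201 was at 0.02 without control replicate 3, 0.12 without knockdown replicate 3 and 0.089 without the 2 libraries (-0.73 without knockdown replicate 1). H2AJ-203 was at 0.18 without control replicate 1, 0.06 without knockdown replicate 1 and 0.08 without knockdown replicate 2. H3-3B-206 was at -0.01 without control replicate 2, -0.63 without knockdown replicate 3 and -0.51 without the 2 libraries, values that depend on how counts were divided between it and H3-3B-204. The cause was not tested. H1-10 kept its sign in every fit.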
